A study of Rattus norvegicus with 10 samples.

Results

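The genes described here carry iron into, through and out of the liver cell, or set the output of hepcidin. They are Slc40a1, Hamp, Tfrc, Tfr2, Tf, Fth1, Ftl1, Hfe, Bmp6 and Steap3. The members were taken by name, as every probe set of the array annotated to any of these 10 genes, which gave 17 of the 31042 probe sets outside the manufacturer's controls. Of the 10 genes, 7 have probe sets annotated to them alone, 13 probe sets in all. Tf, Fth1 and Ftl1 are represented only by 4 probe sets annotated to several genes, and these are described as shared probe sets and not as single genes.

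Livers of female rats of the Harlan Sprague-Dawley strain were measured, 1 group of 5 arrays per treatment. Vehicle rats received corn oil by gavage, labelled 0 mg/kg, and dosed rats received indole-3-carbinol at 300 mg/kg in corn oil by gavage. Indole-3-carbinol is a compound from cruciferous vegetables whose acid products bind the aryl hydrocarbon receptor. Both groups were treated 5 days per week for 13 weeks per the labels, while the series' own text speaks of a chronic study. The age of the rats is not given in the sources used here, and no label ties an array to an animal, so p-values measure the spread between these arrays only. Values are the authors' log2 expression values, a difference of 1 being a doubling. Whole liver was measured, so fewer cells of a type and less RNA per cell cannot be told apart.

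The liver is the main store of iron and the main source of its hormone. Iron bound to transferrin enters through transferrin receptors, is reduced in the endosome, is held in ferritin and leaves through ferroportin, the only known iron exporter of mammalian cells. Hepcidin, made by hepatocytes, binds ferroportin and brings about its breakdown, and its gene answers to bone morphogenetic proteins from sinusoidal endothelial cells and to inflammatory signals through STAT3.

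Of the 17 member probe sets, 3 fell and 0 rose in dosed livers, where 4.79% of all probe sets passed in either direction and 2.3% fell. The calls are those of limma at an adjusted p under 0.05 (Benjamini-Hochberg, 31042 probe sets), and "rose" and "fell" are used only for these. At an unadjusted limma p under 0.05, 1 member probe set was higher and 3 were lower, where 7.76% of all probe sets were higher and 8.36% lower. Of the 7 genes followed through their brightest probe set, 2 fell, Slc40a1 and Steap3, against 6.43% of the 14217 genes followed that passed either way, 3.11% that fell and 3.32% that rose. Hamp, Tfrc, Tfr2, Hfe and Bmp6 did not pass, nor did any shared probe set of Tf, Fth1 or Ftl1. The median difference over the 17 probe sets was -0.02, against 0.00 over all genes followed.

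The 3 stretches of promoter are shown because they belong to both genes that fell and to the hormone gene that did not pass. Each runs 250 bases up to the base before the annotated start of the gene, 5′ to 3′ along the gene, from RefSeq on build GRCr8. In the Hamp promoter (chr1:95300272-95300521, minus strand) capitals mark GGCGCC, the core of the element through which bone morphogenetic proteins act on this gene, and the STAT site TTCNNNGAA. In the Slc40a1 promoter (chr9:55543461-55543710, minus strand) and the Steap3 promoter (chr13:33944357-33944606, minus strand) capitals would mark GCGTG, the core of the site bound by the aryl hydrocarbon receptor, and TGACNNNGC, the core of the antioxidant response element.
Hamp: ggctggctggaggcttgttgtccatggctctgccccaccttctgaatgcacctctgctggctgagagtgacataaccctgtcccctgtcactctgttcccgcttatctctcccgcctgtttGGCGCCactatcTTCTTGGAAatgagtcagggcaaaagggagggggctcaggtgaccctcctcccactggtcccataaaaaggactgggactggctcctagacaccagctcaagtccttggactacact
Slc40a1: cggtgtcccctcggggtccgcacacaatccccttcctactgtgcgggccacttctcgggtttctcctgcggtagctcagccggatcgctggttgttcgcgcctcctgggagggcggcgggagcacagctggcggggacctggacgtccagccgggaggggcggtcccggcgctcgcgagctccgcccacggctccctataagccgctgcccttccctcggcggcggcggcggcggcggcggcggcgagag
Steap3: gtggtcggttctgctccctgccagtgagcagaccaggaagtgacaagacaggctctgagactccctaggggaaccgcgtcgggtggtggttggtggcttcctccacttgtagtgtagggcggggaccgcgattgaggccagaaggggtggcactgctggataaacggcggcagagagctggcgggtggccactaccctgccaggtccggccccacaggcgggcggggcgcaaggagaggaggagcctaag

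Both strands were searched. In Hamp GGCGCC began 129 bases and the STAT match, TTCTTGGAA, 117 bases before the start, on the strand of the gene. Neither GCGTG nor TGACNNNGC was found in the Slc40a1 or Steap3 window, which says only that these letters are not in these 250 bases. Among 33469 promoters of this length, 25.9% held GCGTG, 10.1% TGACNNNGC, 8.69% GGCGCC and 7.67% TTCNNNGAA. Promoters were matched for 7 of the 10 members. Of these 7, Tfrc and Tfr2 each held 1 GCGTG match and Tfrc also held 1 GGCGCC match, while TGACNNNGC was in none. The Slc40a1 window was the richest in G and C of the 7 (74%, against 65.6% in Steap3, 56.8% in Hamp and a median of 51.2% over all promoters).

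Slc40a1 encodes ferroportin, through which hepatocytes and Kupffer cells, the resident macrophages of the liver, release iron. Its brightest probe set, 1390412_at, read 11.35, 11.36, 11.31, 11.26 and 10.83 in vehicle arrays 1 to 5 and 10.65, 10.68, 10.86, 10.60 and 10.72 in dosed arrays 1 to 5. In 4 of 5 dosed arrays the value lay below every vehicle array, and the groups touched only because vehicle 5 was low and dosed 3 was the highest of its group. The means were 11.22 ± 0.22 (SD, n = 5) and 10.70 ± 0.10 (SD, n = 5). Slc40a1 fell by 0.52 ± 0.10 (SE) on the log2 scale, to 69.7% of the vehicle level (limma adjusted p = 0.00923).

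The second Slc40a1 probe set, 1387130_at, gave the same picture without overlap. It read 10.78, 10.78, 10.82, 10.64 and 10.62 in vehicle arrays and 10.17, 10.17, 10.36, 10.20 and 10.34 in dosed arrays, so that all 5 dosed arrays lay below all vehicle arrays. The difference was -0.48 ± 0.07 (SE, limma adjusted p = 0.00147), or 71.7% of vehicle. Groups without overlap were found in 6.5% of all probe sets and in 2 of the 17 member probe sets.

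The third Slc40a1 probe set, 1376972_at, did not pass. Its vehicle arrays read 8.63, 8.73, 9.12, 8.74 and 7.62 and its dosed arrays 8.20, 8.37, 8.49, 8.31 and 8.07. Vehicle 5 was the lowest of all 10 arrays, and the other 4 vehicle arrays lay above all dosed arrays. The difference was -0.28 ± 0.21 (SE, limma adjusted p = 0.618) with all arrays and -0.52 ± 0.11 (SE, limma adjusted p = 0.0143) without vehicle 5.

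**Figure D1:**
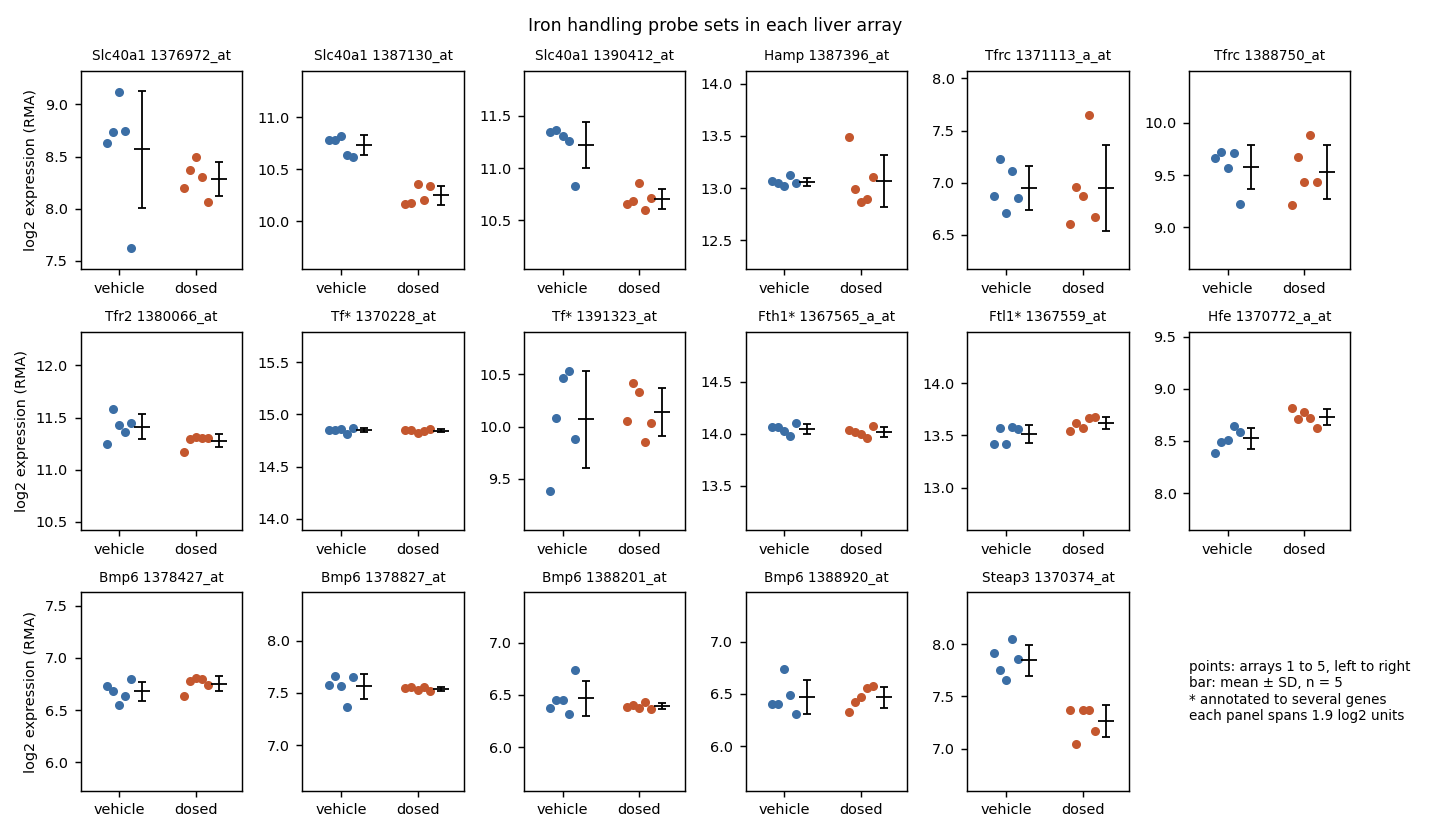
Log2 expression of the 17 iron handling probe sets in each of 5 vehicle (blue) and 5 dosed (orange) liver arrays, with the mean and SD of each group. Only Steap3 and 1387130_at of Slc40a1 have groups without overlap, and vehicle 5 is the low point in 1376972_at of Slc40a1, at 7.62.

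Steap3, the endosomal ferrireductase that turns ferric into ferrous iron after uptake by transferrin, had the largest difference among the members. Its probe set read 7.92, 7.75, 7.65, 8.05 and 7.86 in vehicle arrays and 7.37, 7.05, 7.37, 7.37 and 7.17 in dosed arrays. The lowest vehicle array, at 7.65, was above the highest dosed arrays, at 7.37. Steap3 fell by 0.58 ± 0.09 (SE) on the log2 scale, to 66.8% of the vehicle level (limma adjusted p = 0.00253).

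The 3 genes whose values over the 10 arrays lay nearest to those of Steap3, each gene centred on its own mean, were Jcad, Mgst3 and Slpi. Jcad encodes a protein of endothelial cell junctions, Mgst3 a microsomal glutathione transferase and Slpi a secreted inhibitor of leukocyte proteases. Their root mean square distances from Steap3 were 0.124, 0.125 and 0.128 log2 units, against a median of 0.346 over the 14216 genes searched. Their own differences were -0.53 ± 0.08, -0.50 ± 0.10 and -0.55 ± 0.12 (SE). That these lie near that of Steap3 follows from choosing the genes by distance, and this is a description of 10 arrays.

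Hamp encodes hepcidin, and its mean was the same in both groups to within 0.01. The probe set read 13.06, 13.05, 13.02, 13.12 and 13.05 in vehicle arrays and 13.49, 13.00, 12.86, 12.90 and 13.10 in dosed arrays. Vehicle arrays lay close together, whereas dosed 1 was the highest and dosed 3 the lowest of all 10. The SD was 0.04 in vehicle and 0.25 in dosed arrays (n = 5 each). The difference was 0.01 ± 0.10 (SE, limma adjusted p = 0.985), with a 95% interval from -0.22 to 0.23, and -0.10 ± 0.07 (SE) without dosed 1.

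Upstream of Hamp, the members Hfe, Tfr2 and the ligand Bmp6 did not pass. Hfe, a class I-like protein that binds transferrin receptor and lends its signal to hepcidin, read 8.38, 8.49, 8.51, 8.65 and 8.58 in vehicle arrays and 8.82, 8.71, 8.78, 8.72 and 8.63 in dosed arrays. In 4 of 5 dosed arrays Hfe was above every vehicle array. The difference was 0.20 ± 0.07 (SE, 95% interval 0.06 to 0.35), with an unadjusted limma p of 0.00951 and an adjusted p of 0.12.

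Tfr2, the receptor that acts in hepatocytes as a sensor of loaded transferrin, read 11.25, 11.58, 11.43, 11.36 and 11.45 in vehicle arrays and 11.17, 11.29, 11.31, 11.30 and 11.31 in dosed arrays. All 5 dosed arrays were below the vehicle mean of 11.41, but vehicle 1 was below 4 of them. The difference was -0.14 ± 0.07 (SE, 95% interval -0.29 to 0.02, limma adjusted p = 0.38).

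Bmp6, the ligand by which sinusoidal endothelial cells tell hepatocytes of the iron load, has 4 probe sets. Their differences ran from -0.07 to 0.07, and 0 of the 4 passed limma, adjusted or at an unadjusted p under 0.05. The brightest, 1378827_at, read between 7.37 and 7.66 in vehicle and between 7.51 and 7.56 in dosed arrays. Its difference was -0.02 ± 0.07 (SE, limma adjusted p = 0.93, 95% interval -0.17 to 0.12). The other Bmp6 probe sets had group means of 6.39 to 6.75, near the array medians of 6.22 to 6.30, where differences may be hard to see.

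For the uptake receptor Tfrc, which brings loaded transferrin into most cells and whose mRNA is stabilised when cells lack iron, both probe sets spread widely among dosed arrays. The brighter, 1388750_at, read 9.66, 9.72, 9.57, 9.71 and 9.22 in vehicle arrays and 9.21, 9.67, 9.43, 9.89 and 9.43 in dosed arrays. The other, 1371113_a_at, ran from 6.71 to 7.23 in vehicle and from 6.60 to 7.65 in dosed arrays. Dosed 1 was the lowest and dosed 4 the highest of all 10 arrays in both. The differences were -0.05 ± 0.13 (SE, 95% interval -0.33 to 0.23, limma adjusted p = 0.917) and 0.00 ± 0.17 (SE, 95% interval -0.38 to 0.37, limma adjusted p = 0.997).

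The 4 shared probe sets cover the plasma carrier and the storage shells. The brighter of the pair annotated to Tf, transferrin, together with the neighbouring gene Srprb, a subunit of the signal recognition particle receptor, read 14.82 to 14.87 in vehicle and 14.83 to 14.86 in dosed arrays. These values are close to the top of the table, 15.1, where differences may be compressed. The difference was -0.01 ± 0.05 (SE, limma adjusted p = 0.98). The other Tf and Srprb probe set ran from 9.39 to 10.53 in vehicle and from 9.85 to 10.42 in dosed arrays, with a difference of 0.07 ± 0.19 (SE).

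The probe set of Fth1, the ferritin heavy chain with ferroxidase activity, is annotated also to a pseudogene. It read 14.06, 14.06, 14.03, 13.98 and 14.10 in vehicle and 14.03, 14.01, 13.99, 13.96 and 14.08 in dosed arrays, with a difference of -0.03 ± 0.06 (SE, 95% interval -0.15 to 0.09). The probe set of Ftl1, the light chain that favours mineral formation, is annotated to 5 genes. It read 13.42, 13.57, 13.41, 13.58 and 13.56 in vehicle and 13.55, 13.62, 13.58, 13.67 and 13.68 in dosed arrays. All 5 dosed arrays were above the vehicle mean and 3 were above every vehicle array. The difference was 0.11 ± 0.06 (SE, 95% interval -0.03 to 0.24, limma adjusted p = 0.46). Ferritin is largely set at translation by the iron regulatory proteins, which these transcript levels do not show.

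**Figure D2:**
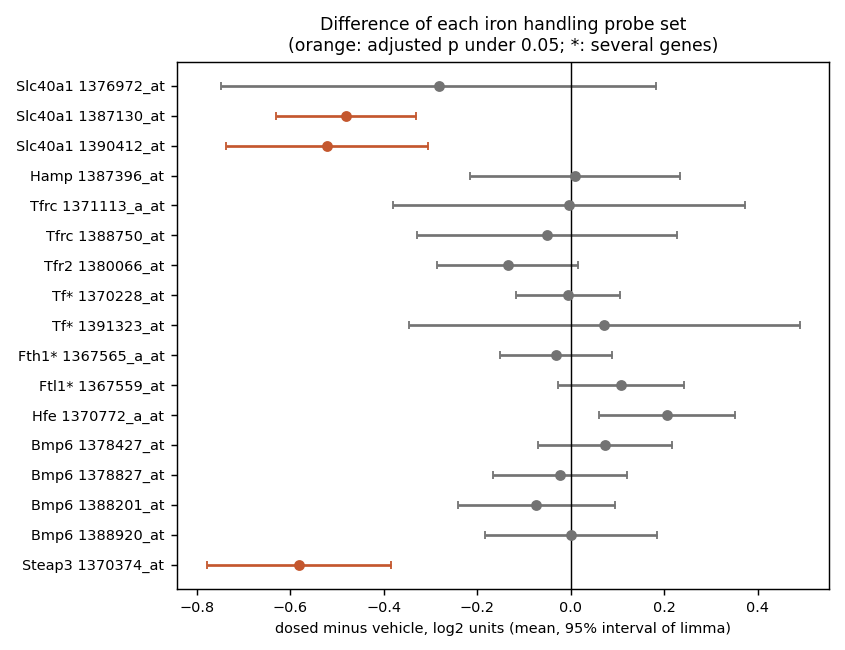
Difference of dosed minus vehicle arrays for each of the 17 probe sets on the log2 scale, with its 95% interval from limma (n = 5 per group). The 3 orange points, 2 probe sets of Slc40a1 and 1 of Steap3, passed at an adjusted p under 0.05 and lie between -0.58 and -0.48, while the other 14 lie between -0.28 and 0.20.

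Around the members, 75 other iron genes were measured. Of these 3 rose and 3 fell, which is 8% where 6.43% of all genes passed, and 9 of the 75 had groups without overlap, against 8.67% of all genes. Without dosed 1, 2 rose and 1 fell, where 4.94% of all genes passed. The median difference was 0.00, as over all genes. These other genes were grouped by role.

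Among 23 genes that control hepcidin, 1 fell and 0 rose, with 4 lower and 2 higher at an unadjusted limma p under 0.05. Of all genes followed, 3.11% fell and 3.32% rose, and 10.2% were lower and 9.62% higher at that unadjusted p. The fallen gene was Hjv, hemojuvelin, the hepatocyte co-receptor that strengthens bone morphogenetic protein signals to Hamp. Hjv read 10.68, 10.65, 10.52, 10.42 and 10.77 in vehicle and 9.97, 10.18, 10.27, 9.87 and 10.13 in dosed arrays, with no overlap. Hjv fell by 0.52 ± 0.09 (SE) on the log2 scale, to 69.5% of vehicle (limma adjusted p = 0.0052), a size close to that of Slc40a1.

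Gdf15, a stress-induced cytokine of this list, was singled out after its values were seen. It had the largest difference of the list, 0.79 ± 0.27 (SE), and did not pass (limma adjusted p = 0.139). Without dosed 4 the difference was 0.48 ± 0.13 (SE, limma adjusted p = 0.08). Its vehicle arrays ran from 5.70 to 6.37 and its dosed arrays from 6.48 to 8.09, the highest being dosed 4, which was also the highest array for Tfrc.

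Among 11 genes of iron sensing and ferritin turnover, 2 rose and 0 fell, where 3.32% of all genes rose and 3.11% fell. Ireb2, iron regulatory protein 2, which binds the mRNAs of ferritin, ferroportin and transferrin receptor when iron is short, read 7.31, 7.31, 7.27, 7.21 and 7.43 in vehicle and 7.48, 7.90, 8.04, 7.98 and 7.83 in dosed arrays. Every dosed array was above every vehicle array, and Ireb2 rose by 0.54 ± 0.10 (SE), 1.45-fold (limma adjusted p = 0.00595). The other risen gene was Skp1, a subunit of the ubiquitin ligase that breaks down that protein, at 0.28 ± 0.07 (SE, limma adjusted p = 0.0429). The call of Skp1 ended when any array other than dosed 2 was left out, with adjusted p of 0.0507 to 0.112, and Skp1 serves many ubiquitin ligases.

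Among 11 genes that recover heme iron, 1 rose and 0 fell, where 3.32% of all genes rose and 3.11% fell. Flvcr1, known as an exporter of heme, read 7.31, 7.15, 7.41, 7.25 and 7.36 in vehicle and 7.58, 7.84, 7.74, 8.05 and 7.65 in dosed arrays. The groups did not overlap, and Flvcr1 rose by 0.47 ± 0.09 (SE), 1.39-fold (limma adjusted p = 0.00845).

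Of 9 genes of iron uptake and reduction 1 fell and 0 rose, where 3.11% of all genes fell and 3.32% rose. The fallen gene was Lrp2, the endocytic receptor megalin, at -0.37 ± 0.09 (SE, limma adjusted p = 0.031). That call ended without any one of vehicle 2, 3 and 4 and dosed 1, 2 and 5, at adjusted p of 0.0667 to 0.0812. Of 18 genes of mitochondrial iron and iron-sulfur clusters 1 fell and 0 rose (3.11% and 3.32% of all genes). It was the ferredoxin Fdx1, at -0.30 ± 0.07 (SE, limma adjusted p = 0.0246). Its call ended without vehicle 1 or any dosed array other than dosed 5 (adjusted p of 0.0505 to 0.0689), and its dimmer probe set differed by 0.01 ± 0.26 (SE). Of 3 genes of iron oxidation and plasma iron 0 passed limma, adjusted or at an unadjusted p under 0.05. The brightest of these 3, Cp, the plasma ferroxidase ceruloplasmin, differed by -0.01 ± 0.06 (SE).

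**Figure D3:**
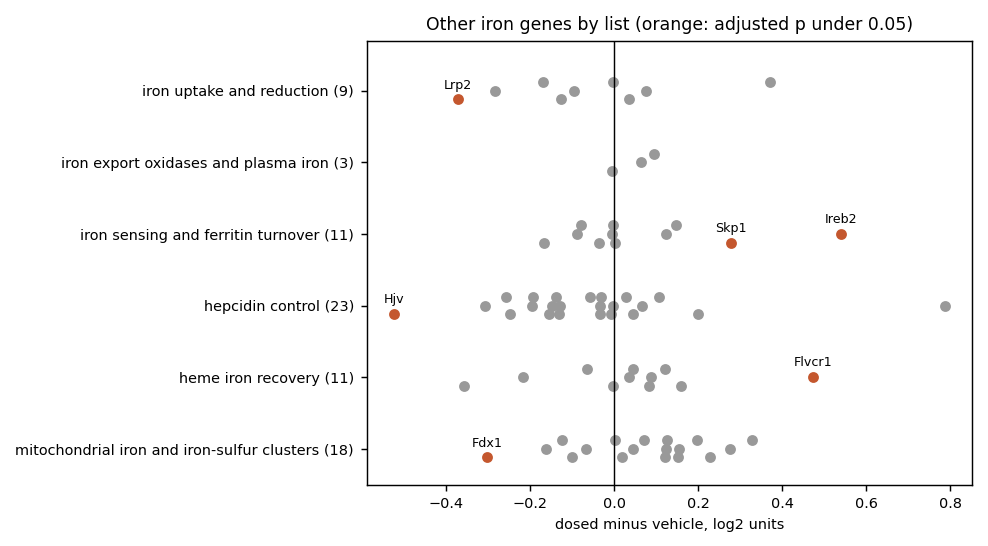
Difference of dosed minus vehicle arrays on the log2 scale for 75 other iron genes, each through its brightest probe set, by list (number measured in brackets). Points in orange passed at a limma adjusted p under 0.05, namely Ireb2, Flvcr1 and Skp1 above 0 and Hjv, Lrp2 and Fdx1 below 0.

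Markers of other liver cells and the RNA quality of the arrays are set beside the 2 fallen members here. Of 10 such array measures 0 passed after adjustment (exact permutation test, with 4 at an unadjusted p under 0.05). Even the GAPDH measure of RNA quality, at the lowest exact permutation p this design allows (0.00794), reached only 0.0794 after adjustment. The count of 0 therefore does not show that the groups are alike. Ferroportin is abundant in Kupffer cells. Of 10 measured Kupffer cell and macrophage markers 2 fell, C1qa (-0.37 ± 0.08, SE) and Cd5l (-0.52 ± 0.12, SE), and 0 rose, where 3.11% of all genes fell. The call of C1qa ended without vehicle 1 or dosed 5 (limma adjusted p of 0.0525 and 0.0516), and that of Cd5l without any one of vehicle 1, 2 and 4 and dosed 1, 4 and 5 (limma adjusted p of 0.0515 to 0.0677). At an unadjusted limma p under 0.05, 8 of the 10 were lower and 1 higher, against 10.2% and 9.62% of all genes. In all, 9 of the 10 had differences below 0, with a median of -0.34, where 51.4% of all genes lay below 0. The exception was Lyz2, a lysozyme of macrophages and other myeloid cells, at 0.41 ± 0.15 (SE, limma adjusted p = 0.153), with all 5 dosed arrays above the vehicle mean. The log2 of the summed level of the list ran from 13.29 to 13.63 in vehicle and from 12.93 to 13.34 in dosed arrays. The exact permutation p (two-sided) was 0.0159, and 0.0794 after adjustment over 10 array measures, or 0.0397 when vehicle 3 was left out. Vehicle 5, low for Slc40a1, was at 13.55 on this measure, the second highest of all arrays. The part of these cells in the Slc40a1 result was not tested.

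For sinusoidal endothelial cells, the source of Bmp6, 0 of 8 markers passed limma, with 3 lower and 0 higher at an unadjusted p under 0.05 (10.2% and 9.62% of all genes). All 8 had differences below 0, against 51.4% of all genes. Their summed level ran from 12.56 to 12.82 in vehicle and from 12.40 to 12.64 in dosed arrays (exact permutation p = 0.0238, two-sided, 0.0794 after adjustment). Erythroid cells are also rich in Tfrc. Their markers had a summed level of 12.48 ± 0.31 in vehicle and 12.46 ± 0.42 in dosed arrays (SD, n = 5, exact permutation p = 0.992). Hbb, a globin gene, had means of 12.36 and 12.34, so this sum is largely that of 1 transcript. Of the 7 markers 0 passed limma, adjusted or at an unadjusted p under 0.05. Epb42, Ahsp, Klf1 and Rhag had group means of 4.62 to 6.02, below the array medians of 6.22 to 6.30, so their lack of a call says little. The hepatocyte markers were bright in every array, with a summed level of 17.31 to 17.38, as the label of the tissue has it. Of these 8 markers 1 rose and 0 fell, where 3.32% of all genes rose and 3.11% fell. The risen one was Apoa1, the main protein of high-density lipoprotein, at 0.38 ± 0.07 (SE, limma adjusted p = 0.00883) with no overlap. Differences were above 0 in 3 of the 8 and below 0 in 5, with a median of -0.02. At an unadjusted limma p under 0.05, 1 was higher and 1 lower (9.62% and 10.2% of all genes). Another of these markers, Alb, albumin, read 15.09 to 15.12 in all arrays, at the top of the table. Their part in the member results was not tested.

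The difference between the 3′ and 5′ control probe sets of GAPDH, a measure of RNA integrity, was 0.32 to 0.65 in vehicle and 0.16 to 0.29 in dosed arrays without overlap (two-sided exact permutation p = 0.00794, which is the lowest value this design allows; 0.0794 after adjustment, or 0.0397 when vehicle 3 was left out). Vehicle 5 was highest, at 0.65. With this difference as a covariate the 2 called Slc40a1 probe sets stayed called, at -0.83 ± 0.13 (SE, limma adjusted p = 0.011) for 1390412_at and -0.59 ± 0.11 (SE, limma adjusted p = 0.0287) for 1387130_at. Under the same covariate the third, 1376972_at, was at -0.997 ± 0.256 (SE, limma adjusted p = 0.0987). Steap3 kept its size but not its call, at -0.60 ± 0.15 (SE, limma adjusted p = 0.101). Because the GAPDH difference separates the groups completely, dose and RNA quality cannot be told apart in this fit.

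The same measure of beta-actin was 1.45 to 1.74 in vehicle and 1.17 to 1.53 in dosed arrays. Its two-sided exact permutation p was 0.0476, or 0.119 after adjustment. Here vehicle 5 was the lowest vehicle array, at 1.45, unlike in GAPDH. With this beta-actin measure as covariate, Steap3 was still called and 1390412_at of Slc40a1 lost its call, at -0.40 ± 0.12 (SE, limma adjusted p = 0.13). Of the other iron genes 0 were called with the GAPDH covariate. There Hjv was at -0.36 ± 0.14, Ireb2 at 0.62 ± 0.16 and Flvcr1 at 0.51 ± 0.15 (SE), while Skp1 was at 0.10 ± 0.10 (SE). Only 1.6% of all genes passed with that covariate.

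**Figure D4:**
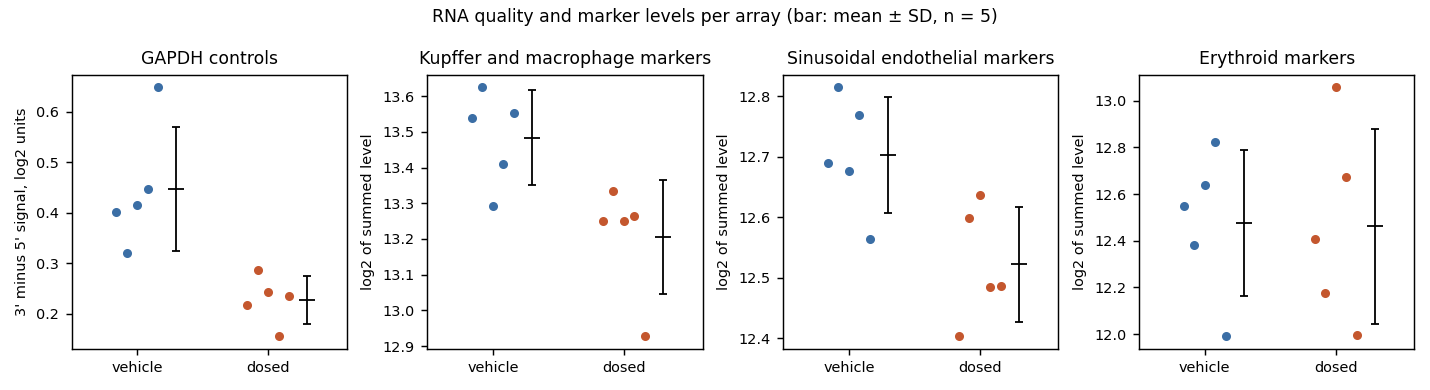
RNA quality of the GAPDH control probe sets and the log2 of the summed level of 3 marker lists in each array, with the mean and SD of each group (n = 5). GAPDH differences are higher in all vehicle arrays (0.32 to 0.65) than in all dosed arrays (0.16 to 0.29), Kupffer cell and macrophage markers overlap slightly, and erythroid markers overlap fully.

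**Figure D5:**
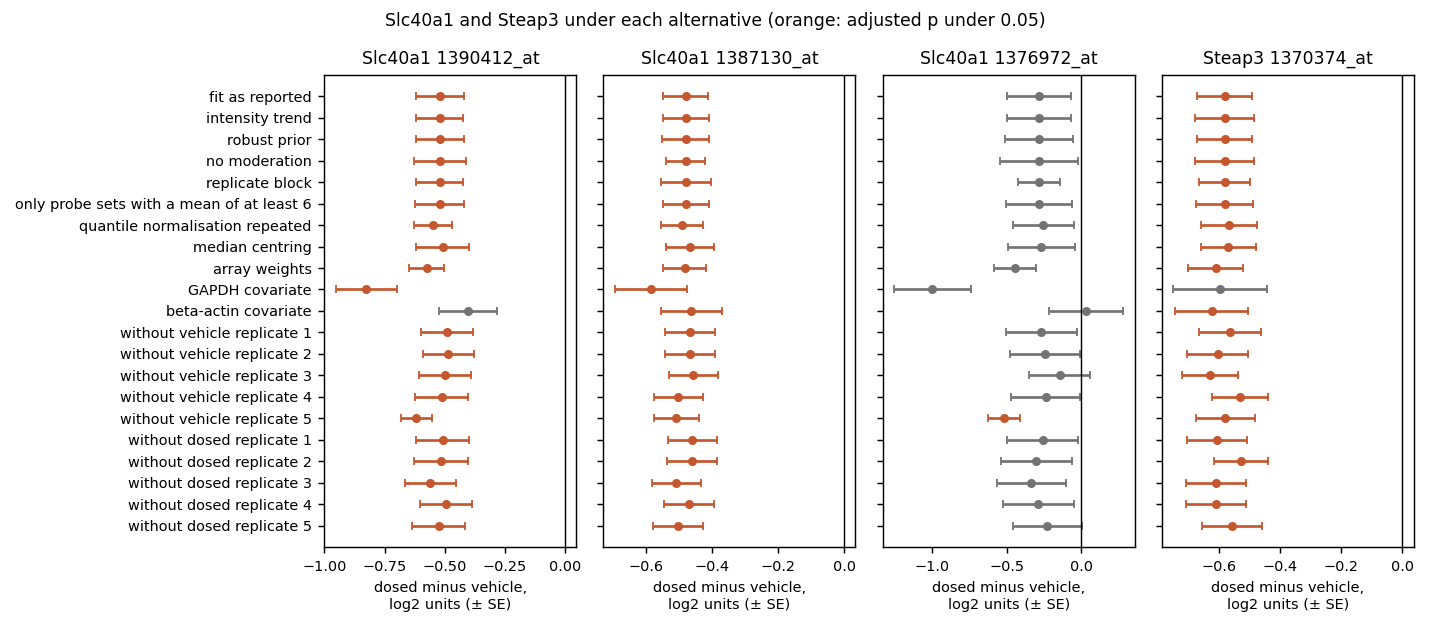
Difference of dosed minus vehicle arrays with its SE for the 3 Slc40a1 probe sets and Steap3 under each alternative, orange where the limma adjusted p is under 0.05. The points of 1387130_at stay orange throughout, between -0.59 and -0.46, and those of 1376972_at are orange only without vehicle replicate 5, at -0.52.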

How the data were processed

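The table deposited by the authors is on a log2 scale. Per the submitters' processing notes it was made by RMA (robust multi-array averaging), with no version or software named. RMA aligns the distributions of the arrays and can compress differences at the top of the scale. The 10 arrays had medians of 6.22 to 6.30 and pairwise correlations of 0.983 to 0.997. Names come from the platform annotation of 2016, updated through RefSeq (GRCr8) by Entrez ID: 20826 probe sets name 1 gene, 436 name several and 9780 name no gene. The brightest probe set over all arrays stood for each of 14217 genes.

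The contrast of dosed minus vehicle was fitted with limma 3.58.1 (R 4.3.3; lmFit, eBayes, two-sided) and adjusted by Benjamini-Hochberg over every probe set, with a threshold of 0.05. Intervals are unadjusted. The dosed against vehicle fit was tested on simulated arrays of 31042 probe sets. It called 85.1% of 67 probe sets with a 1.5-fold change, 95.5% of 67 with a 2-fold change and 100% of 66 with a 4-fold change. It made 9 false calls. The simulated noise was independent for each probe set and array. Effects shared by a whole array were therefore not simulated, and these rates need not hold for the real arrays. Exact permutation tests served for values that exist once per array, adjusted over 10 such measures. Members, lists and tests were chosen with earlier results of these data known.

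All members are named. In each other list up to 4 called genes by size are named, or the brightest where 0 were called, and so are the 3 genes nearest to the most changed member. Gdf15, C1qa, Cd5l, Lyz2, Lrat, Apoa1, Alb, Egfr, Hspa9 and further probe sets of named genes were chosen after their values were seen. So were the erythroid markers Hbb, Epb42, Ahsp, Klf1 and Rhag. The alternatives were an intensity trend, a robust prior, no moderation, a replicate block, a filter at 6, renewed quantile normalisation, median centring, array weights, a GAPDH or beta-actin covariate, a threshold of 0.01, averaging the probe sets of a gene or the log2 values of a marker list, and leaving out each array. For Gdf15, C1qa, Cd5l, Lyz2, Lrat and Apoa1 they were added after seeing the data.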

Additional observations from a re-analysis of the deposited data

Results flagged for a closer look

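In groups of 5 arrays the most extreme value was set against the group's range, for 68 groups, and 3 stood apart, where chance gives about 1 in 20. In 1390412_at of Slc40a1, vehicle 5 was at 10.83, below the next vehicle array at 11.26. In Tfr2, dosed 1 was at 11.17, below the next dosed array at 11.29. In the summed level of Kupffer cell and macrophage markers, dosed 5 was at 12.93, below the next dosed array at 13.25.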

How the results depend on the processing

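The member probe sets changed were 3, all lower, under every alternative other than the GAPDH and beta-actin covariates (2 each) and leaving out vehicle 5 (4). The member genes changed were 2 in all settings but 1 with each covariate. The other iron genes changed, 6, were 0 with the GAPDH covariate, where 1.6% of all genes passed, and 1 with the beta-actin covariate (3.5%). They were 4 with the replicate block (4.55% of all genes), 5 without moderation (4.18%) and 8 with array weights (9.45%). At a threshold of 0.01 they were 3, a drop that cannot be weighed here because the share of all genes at that threshold is not given. With 1 array left out they ran from 3 without dosed 1 (4.94% of all genes) to 7 without vehicle 5 (8.74%). No label says whether the replicate numbers pair the arrays. Same-numbered arrays correlated between -0.28 and 0.22 in their deviations. Of 5 vehicle arrays, 2 correlated best with the dosed array of their own number, which does not settle whether they are paired. The block left both member genes called, and among the named genes ended the calls of Skp1 (adjusted p = 0.125), Fdx1 (adjusted p = 0.0853) and C1qa (adjusted p = 0.0731). No moderation ended those of Lrp2, Skp1, Slpi, C1qa and Cd5l, and averaging its probe sets that of Fdx1. Besides 1390412_at of Slc40a1, the beta-actin covariate ended those of Lrp2, Ireb2, Skp1, Flvcr1, Fdx1, Mgst3, Slpi, Cd5l, Lrat and Apoa1, and the GAPDH covariate those of Steap3, all 6 other iron genes, Slpi, C1qa, Cd5l, Lrat and Apoa1.

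Signs turned only in differences that were not called on either side. With median centring these were 1371113_a_at of Tfrc (0.0090), the brighter Tf probe set (0.0065), 1388920_at of Bmp6 (0.012) and Cp (0.0064). With quantile normalisation they were 1371113_a_at of Tfrc (0.022) and 1388920_at of Bmp6 (0.017), and with array weights Hamp (-0.033) and Cp (0.0076). With the GAPDH covariate they were the brighter Tf probe set (0.011), Fth1 (0.0098), 1388201_at of Bmp6 (0.12) and Cp (0.027), and with the beta-actin covariate 1376972_at of Slc40a1 (0.032) and 1388920_at of Bmp6 (0.044). With mean log2 values the erythroid difference was 0.046 and the lymphocyte difference 0.0077, against -0.01 and -0.05.

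With 1 array left out, differences that turned sign ran from -0.096 to 0.061 in Hamp, -0.18 to 0.084 in 1371113_a_at and -0.14 to 0.027 in 1388750_at of Tfrc, -0.099 to 0.19 in the dimmer Tf probe set, -0.072 to 0.0017 in 1378827_at and -0.040 to 0.067 in 1388920_at of Bmp6, and -0.033 to 0.012 in Cp. Summed levels ran from -0.0065 to 0.011 (hepatocyte), -0.16 to 0.10 (erythroid) and -0.33 to -0.21 (Kupffer), and the GAPDH difference from -0.25 to -0.17. Without vehicle 3 the GAPDH and Kupffer measures passed (adjusted exact permutation p = 0.0397 each). Vehicle 3 was the lowest vehicle array on the Kupffer measure, at 13.29, and without it those groups did not overlap. On the GAPDH measure the groups did not overlap with or without vehicle 3. There the lower adjusted p came from the joint adjustment over the measures. The cause of the other shifts was not tested. Precision is limited by having 5 arrays in a group.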

Other observations

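The summed levels of the remaining marker lists did not pass. They differed by -0.19 for stellate cells and fibroblasts (exact permutation p = 0.0794), 0.16 for cholangiocytes (exact permutation p = 0.151), -0.05 for lymphocytes (exact permutation p = 0.365) and -0.05 for proliferation (exact permutation p = 0.31). Of 7 measured genes of the stellate and fibroblast list 1 fell and 0 rose, where 3.11% of all genes fell and 3.32% rose. It was Lrat, which esterifies retinol, at -0.51 ± 0.10 (SE, limma adjusted p = 0.00889), a call that ended with the GAPDH and with the beta-actin covariate. Differences were below 0 in 6 of the 7 and above 0 in 1. At an unadjusted limma p under 0.05, 3 were lower and 0 higher (10.2% and 9.62% of all genes).

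Vehicle 5 was the lowest of all 10 arrays in 22.5% of the genes followed and in 23 of the 75 other iron genes. It had the highest GAPDH difference of all arrays, but the lowest beta-actin difference of the vehicle arrays, 1.45. The following examples were singled out after their values were seen. In Egfr, a receptor of growth factors from the list of hepcidin control, it read 8.76, and the other vehicle arrays read 10.01 to 10.65. In Hspa9, a mitochondrial chaperone, it read 10.10, and the others read 10.79 to 11.33. Probe sets of 1 gene differed in this. In 1389827_at of Fdx1 vehicle 5 read 6.35, against 7.80 to 7.92 in the others, whereas the brightest probe set of Fdx1 read 12.66, within the vehicle range of 12.59 to 12.73. In 1368419_at of Cp, ceruloplasmin, it read 8.80, against 9.47 to 9.68, whereas 1368418_a_at of Cp read 13.73, between 13.48 and 13.79 in the others. The cause was not tested.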
